A study of Mus musculus with 719 samples.

Results

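ON direction-selective ganglion cells are output neurons of the retina that respond to slow image motion in one preferred direction and project to the accessory optic system, the brainstem nuclei that stabilise gaze. Cells that prefer upward and downward motion form separate subtypes with different targets and inputs. Fstl4 (also called Spig1) encodes a secreted follistatin-like protein and is the gene behind the Spig1-GFP mouse line that marks ON cells preferring upward motion. Pcdh9 encodes a protocadherin, a cell-surface adhesion molecule.

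The cells described here are labelled as ON direction-selective ganglion cells of a Pcdh9-Cre mouse line at postnatal day 10 (P10), preferred direction unknown. Those taken held a detected Fstl4 fragment and no fragment of C1qb, a complement gene of microglia. Some of them held transcripts of other retinal cell types, as given below. A gene counted as detected at 0.5 estimated fragments or more. Of 92 Pcdh9-Cre cells, 40 met the rule, 17 had both genes, 23 had C1qb alone and 12 had neither. They were set against 45 ON cells labelled up at P10, which makes 85 cells in the comparison of 719 in the series. The ON up cells came from the Spig1-GFP line and were also P10. The ON down cells of that line at P10 (32 cells) served as a further level. Retinal cells were sorted one by one on cholera toxin B label and absence of the microglial antigen CD11b, with or without GFP, and each was made into a full-length Smart-seq2 library. The labels do not say which cells the Pcdh9-Cre transgene marks or how Cre activity was reported.

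No animal is named, so the cells of a group at P10 are 1 pool and not replicates. No test between the Pcdh9-Cre pool and the ON up pool was possible, and mouse line, sort and cell group cannot be told apart. Values are means over cells of CPM, the estimated fragments of a gene scaled to one common library total, and a difference is log2(mean CPM + 5) of one pool minus the other. A gene is called higher or lower at a 2-fold difference or more on that scale. The library numbering of the cells followed 2 schemes, taken here as 2 runs. All Pcdh9-Cre cells had the second scheme, as did 22 of the 45 ON up cells, and each comparison was repeated against those 22. The first-run and second-run ON up cells give the spread within 1 group: 8.55% of 10790 genes were past 2-fold between them.

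Depth was lower in the Pcdh9-Cre cells than in the ON up cells, with a median of 656530 against 887314 estimated fragments, and close to that of the second-run ON up cells at 667267. A median of 9994 genes was detected in a Fstl4-positive Pcdh9-Cre cell and 8409 in an ON up cell. After each cell was thinned to 400000 fragments, which left out 2 Pcdh9-Cre cells and no ON up cell, the medians were 9737 and 8050 genes. Over all 11099 genes compared, the median log2 difference was -0.12, so differences below are to be read against that shift.

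Fstl4 chose the cells, so its level is given as a description. It ran from 9.75 to 1607 CPM in the 40 cells, with a median of 414 CPM. In the ON up cells it ran from 42.3 to 853 CPM, with a median of 279 CPM. The ranges overlapped, with 2 Pcdh9-Cre cells below the lowest ON up cell and 7 above the highest. In ON down cells the median was 0 and the highest value 50.6 CPM. Just inside the rule lay a cell with 5 Fstl4 fragments. Just outside it, all 35 cells without Fstl4 held 0 fragments. The 17 cells that C1qb removed had Fstl4 at a median of 411 CPM. The gene lies on the plus strand of chromosome 11 (GRCm38, 52764634 to 53188538). Pcdh9 itself had a median of 721 CPM in the Pcdh9-Cre cells and 953 CPM in the ON up cells, and was detected in every cell of both pools.

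To ask where the cells lie between the ON up and ON down types, genes were taken from the other ages. ON up and ON down pools at P4, P5, P7, P8 and P12 were compared with limma, with age as a block, and no P10 cell took part. Of 11399 genes tested, 50 were higher in up (0.439%) and 44 were higher in down (0.386%) at a Benjamini-Hochberg adjusted p under 0.05 and a 2-fold difference. The counts rest on all 5 ages: without P5 the up list held 32 genes, and the down list held 27 without P4 or without P7 and 24 without P5 or without P8. The up list is led by Fstl4 itself and Ptprk, a receptor-type tyrosine phosphatase that binds to itself between cells. The down list is led by Fibcd1, a membrane receptor that binds chitin and other glycans, and Efnb2, an ephrin ligand that signals by contact. Fstl4 marks the up cells in the reporter line, so its place in the list is not a finding. Ptprk differed by 3.86 ± 0.27 (log2, SE; limma adjusted p = 2.6e-05) and Fibcd1 by -5.47 ± 0.22 (limma adjusted p = 3.9e-07).

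On these lists the Pcdh9-Cre pool lay nearer to the ON up pool than to the ON down pool by its medians. Without Fstl4, which chose the cells, 42 of the 49 up-list genes lay within 2-fold of the ON up level, 3 were higher and 4 lower, beside 4.19% of all 11099 genes higher and 3.59% lower. Both up-list shares were larger than those of all genes, so these counts alone do not show closeness to ON up. The median difference of the 49 genes from ON up was -0.27 and from ON down 0.89. Of the 44 down-list genes, 35 passed the filter of 5 CPM, with 5 higher and 2 lower than in ON up, again larger shares than over all genes. Among those higher, Zfhx4, Etl4 and Syndig1 averaged 0.035, 1.24 and 2.07 CPM in ON up cells and passed the filter only through the Pcdh9-Cre pool. Over all 44, the median difference was 0.24 from ON up and -1.16 from ON down. Among the genes that also separated ON up from ON down by 2-fold at P10, 22 of 30 in the up list without Fstl4 and 20 of 29 in the down list lay nearer to the ON up level. Against second-run ON up cells the list medians were -0.23 and 0.14.

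Ptprk showed this placement in single cells. It ran from 0 to 317 CPM in the Pcdh9-Cre cells (median 84.6), from 8.77 to 342 CPM in ON up cells (median 86.04) and from 0 to 56.6 CPM in ON down cells (median 0). A fragment was found in 32 of 40 Pcdh9-Cre cells, 45 of 45 ON up cells and 3 of 32 ON down cells, so the Pcdh9-Cre cells covered nearly the whole ON up range and 8 of them lacked the gene. Ldb2, a cofactor of LIM-domain transcription factors, averaged 162 CPM in the Pcdh9-Cre pool, 151 in ON up and 12.9 in ON down. Sorcs2, a sortilin-family receptor, averaged 61.1, 71.4 and 11.97 CPM in the same order. Both were close to the ON up level. Tbx5, a T-box transcription factor, was low throughout: 8.96 CPM on average with a fragment in 21 of 40 cells, against 12.2 CPM and 25 of 45 in ON up and 3.34 CPM and 1 of 32 in ON down.

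Genes of the down list were low in the Pcdh9-Cre cells, with some exceptions. Fibcd1 averaged 3.11 CPM there, 1.83 in ON up and 163 in ON down. A fragment of it was found in 11 of 40 Pcdh9-Cre cells but the highest cell held 34.1 CPM, under the ON down median of 125. Cntnap5a, a neurexin-family adhesion molecule, averaged 8.41, 3.35 and 102 CPM in the same order. Efnb2 averaged 21.5 CPM in the Pcdh9-Cre cells, 11.5 in ON up and 72.6 in ON down. Zfhx4, a zinc-finger homeobox factor, stood apart: 41.3 CPM in Pcdh9-Cre and 40.9 CPM in ON down cells, with 1 of 45 ON up cells holding a fragment against 16 of 40 Pcdh9-Cre cells. In the up list, Wls, which carries Wnt proteins to the cell surface, averaged 39.4 CPM in the Pcdh9-Cre pool and 97.4 in ON up. AW551984, an up-list gene at the other ages, averaged 44.2 CPM in Pcdh9-Cre cells against 10.1 in ON up and 24.2 in ON down cells.

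The sequence around the start of Fstl4 is shown because the gene defines the cells and Tbx5 is in the up list. It is 300 bases of the RefSeq promoter table (GRCm38.p6, plus strand, chr11:52764456-52764755), 5′ to 3′. Capitals mark 1 match to AGGTGT, the core of the T-box motif, searched on both strands.
Fstl4: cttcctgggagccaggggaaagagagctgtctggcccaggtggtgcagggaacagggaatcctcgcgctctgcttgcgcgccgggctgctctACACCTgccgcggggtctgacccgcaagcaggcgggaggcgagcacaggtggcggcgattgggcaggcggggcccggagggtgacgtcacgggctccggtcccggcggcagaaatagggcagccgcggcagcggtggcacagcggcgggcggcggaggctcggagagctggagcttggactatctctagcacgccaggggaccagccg
The motif or its reverse complement ACACCT occurs in 13.7% of the 32851 promoters of that length in the table, and not in the Ptprk promoter. A match in the letters says nothing of binding.

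**Figure D1:**
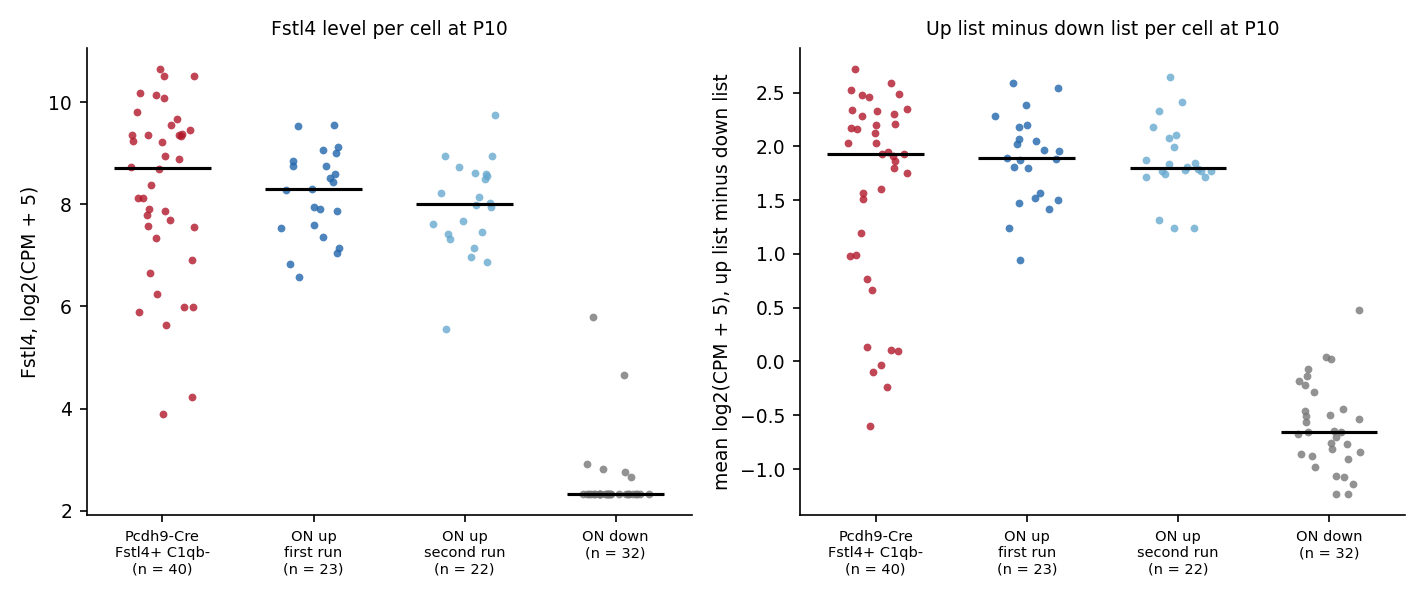
Fstl4 level (left, log2(CPM + 5)) and the mean log2(CPM + 5) of 49 up-list genes, Fstl4 left out, minus that of 44 down-list genes (right) for each cell at P10; points are cells and lines are medians. In the right panel 31 of 40 Pcdh9-Cre cells lie at or above the lowest ON up cell, and 7 lie within the ON down range, the top of which is a single cell.

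The cells were not uniform. The per-cell score, the mean log2(CPM + 5) of the up list without Fstl4 minus that of the down list, ran from -0.60 to 2.72 in the Pcdh9-Cre cells (median 1.93), from 0.95 to 2.64 in ON up cells (median 1.85) and from -1.23 to 0.48 in ON down cells (median -0.66). ON up and ON down cells did not overlap. Of the Pcdh9-Cre cells, 9 lay below every ON up cell and 7 of these lay within the ON down range. A single ON down cell, at 0.48, set the top of that range, and the next highest was at 0.04. Pcdh9-Cre cells at 0.10, 0.11 and 0.13 lay between those ON down cells.

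Those 9 cells had Fstl4 between 9.75 and 156 CPM and differed from each other. Igf1, a growth factor abundant in ON up cells (794 to 4597 CPM), was under 60 CPM in 6 of the 40 Pcdh9-Cre cells, and all 6 were among the 9. Tac1, the precursor of substance P, was over 500 CPM in 4 Pcdh9-Cre cells, of which 3 were among the 9, and reached 2134 CPM in the cell with the lowest score. No ON up cell held a Tac1 fragment, and 0 of 45 cells allows a share of up to 6.67%. In ON down cells at P10, Tac1 reached 333 CPM and Igf1 ran from 0 to 2721 CPM. One of those ON down cells held 306 CPM of Tac1 and 18.1 CPM of Igf1. Another cell held 2364 CPM of Rlbp1, a retinoid-binding protein of Müller glia, with no fragment of Slc17a6, the vesicular glutamate transporter of ganglion cells. A pair of cells held 839 and 986 CPM of Gad1, the GABA-synthesising enzyme of amacrine cells, and no fragment of Rbpms or Slc17a6. Rlbp1 and Gad1 also reached 1700 and 520 CPM in single ON down cells at P10. In the whole pool, the ganglion cell marker Rbpms, an RNA-binding protein, was detected in 95% of cells and Slc17a6 in 92.5%.

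**Figure D2:**
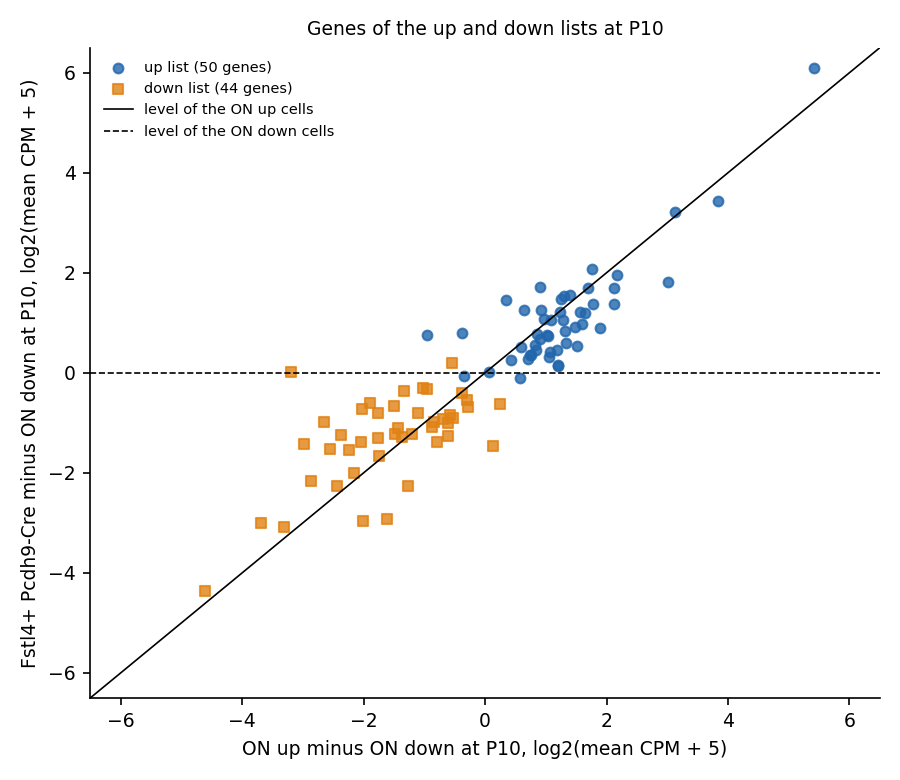
Difference from ON down cells at P10 of the Fstl4-positive Pcdh9-Cre cells (vertical) and of the ON up cells (horizontal) for each gene of the up list (50, circles) and down list (44, squares), in log2(mean CPM + 5). Genes on the solid line are at the ON up level and genes on the dashed line at the ON down level; the median up-list gene lies 0.27 below the solid line.

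Across all genes, 465 of 11099 (4.19%) were higher in the Pcdh9-Cre pool than in the ON up pool and 398 (3.59%) were lower. Against second-run ON up cells alone, 543 of 11075 genes were higher (4.9%) and 439 lower (3.96%). Genes past 2-fold in the same direction against all, first-run and second-run ON up cells numbered 339 higher (3.05%) and 162 lower (1.46%). The calls depend on the settings: a pseudocount of 1 CPM gave 732 higher and 720 lower.

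Transcripts of other retinal cell types were prominent among the genes higher in the Pcdh9-Cre pool. Genes were named by size among those averaging 20 CPM and found in 25% of the cells of the higher pool, which leaves out genes of fewer cells such as Tac1 (142 against 0 CPM on average). Among the 12 named upward were the rod genes Sag (arrestin), Pde6g, Gngt1 and Gnat1 (phototransduction), Rbp3 (retinoid transport between photoreceptors and pigment epithelium) and Rp1 (photoreceptor axoneme), with Gnb3 of cones and ON bipolar cells, and Rlbp1 of Müller glia. Sag averaged 641 CPM in the Pcdh9-Cre pool, with a median of 216 and a range of 0 to 3175 CPM. In ON up cells it averaged 28.9 CPM, with a median of 0 and a highest cell of 1285 CPM. A Sag fragment was found in 36 of 40 Pcdh9-Cre cells (90%, 95% Clopper-Pearson 76.3 to 97.2%) and in 7 of 45 ON up cells (15.6%, 6.49 to 29.5%). At 400000 fragments per cell the shares were 89.5% and 8.89%. Most Pcdh9-Cre cells held this rod transcript and most ON up cells at P10 held none. Other pools held it too: ON down cells at P10 averaged 105 CPM, and ON up cells 253 CPM at P8 and 391 CPM at P12. Crym, a thyroid hormone-binding protein, averaged 157 against 1.34 CPM, but its Pcdh9-Cre median was 10.2 CPM and its highest cell 4644 CPM, so the mean rested largely on 1 cell. ON down cells at P10 averaged 175 CPM of Crym.

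Over all 12 rod genes the median difference was 3.46. Over every gene listed it was 2.82 for 8 bipolar, 1.62 for 10 glial, 1.42 for 8 cone and 0.97 for 11 amacrine genes. Many of these genes were at or near 0 in ON up cells and could pass the filter only through the Pcdh9-Cre pool, so members past 2-fold are not counted. The means rested on few cells for some lists. Summed per cell, the glial list had a median of 396 CPM in Pcdh9-Cre and 377 CPM in ON up cells, and the amacrine list 133 against 181 CPM, with highest cells of 3454 and 425 CPM. The bipolar sum had medians of 97.3 and 3.89 CPM. Of 18 microglial genes, 2 passed the filter and neither was past 2-fold, and 3 were at 0 in every Pcdh9-Cre cell; the rule itself removed cells with C1qb. Summed over 12 genes, the rod list ran from 0 to 11424 CPM in Pcdh9-Cre cells (median 1027) and from 0 to 4665 CPM in ON up cells (median 7.81). The 66 genes of the rod, cone, glial, bipolar, amacrine and microglial lists together summed to 461 to 21406 CPM per Pcdh9-Cre cell and 186 to 5415 CPM per ON up cell. Whether these transcripts came from free RNA, attached fragments or the cells themselves was not tested.

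**Figure D3:**
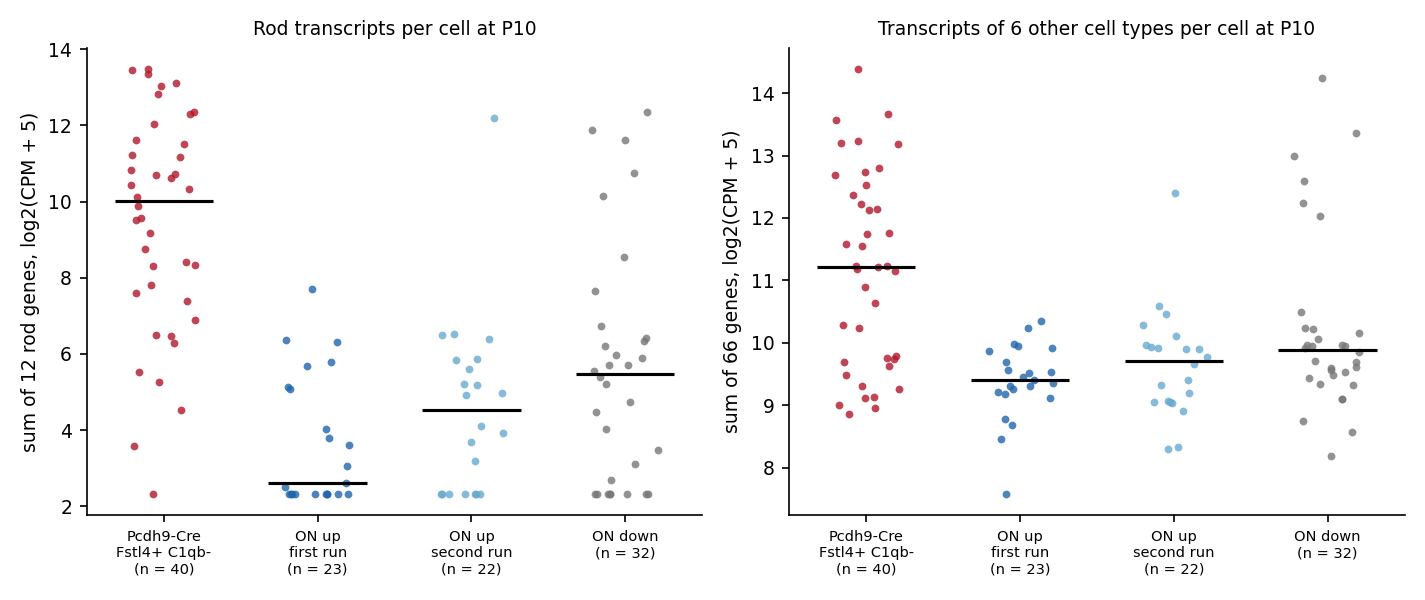
Summed level per cell at P10 of 12 rod genes (left) and of 66 genes of 6 other retinal cell types (right), in log2(CPM + 5); points are cells and lines are medians. The Pcdh9-Cre cells have a median rod sum of 1027 CPM, and 1 second-run ON up cell reaches 4665 CPM.

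Since these transcripts moved with the comparison, counts were repeated with cells whose 66-gene sum was under 1600 CPM, a limit chosen after the values were seen. It kept 16 Pcdh9-Cre and 44 ON up cells. Then 234 of 10776 genes were higher and 590 lower. Of the 465 genes called higher with all cells, 159 were past 2-fold in the same direction in this subset, and of the 398 called lower, 292 were. Over the genes that passed the filter there, the rod median was 1.65 in the subset (7 genes) and the bipolar median -0.26 (2 genes). Genes of these lists set the limit, so lower medians there follow from the choice of cells.

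Sequences around the start of 3 photoreceptor genes are shown because rod transcripts were prominent among the genes higher in the Pcdh9-Cre pool. They are RefSeq promoters on GRCm38.p6, each 300 bases on the plus strand and printed 5′ to 3′. Capitals mark matches to TAATCC, the core bound by the photoreceptor factor Crx, or its reverse complement GGATTA.
Sag, chr1:87803430-87803729: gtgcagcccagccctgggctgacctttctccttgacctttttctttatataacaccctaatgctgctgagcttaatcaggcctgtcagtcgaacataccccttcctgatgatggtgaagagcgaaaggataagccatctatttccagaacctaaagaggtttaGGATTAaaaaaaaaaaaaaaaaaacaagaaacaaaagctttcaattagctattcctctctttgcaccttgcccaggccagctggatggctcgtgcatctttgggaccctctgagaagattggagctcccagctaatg
Gngt1, chr6:3993758-3994057: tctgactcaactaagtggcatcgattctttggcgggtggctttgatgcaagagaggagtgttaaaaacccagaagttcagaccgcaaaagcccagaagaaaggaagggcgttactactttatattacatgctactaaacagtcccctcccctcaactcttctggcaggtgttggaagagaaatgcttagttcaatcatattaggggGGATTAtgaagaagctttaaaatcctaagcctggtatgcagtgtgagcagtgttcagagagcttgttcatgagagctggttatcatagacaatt
Rbp3, chr14:33953753-33954052: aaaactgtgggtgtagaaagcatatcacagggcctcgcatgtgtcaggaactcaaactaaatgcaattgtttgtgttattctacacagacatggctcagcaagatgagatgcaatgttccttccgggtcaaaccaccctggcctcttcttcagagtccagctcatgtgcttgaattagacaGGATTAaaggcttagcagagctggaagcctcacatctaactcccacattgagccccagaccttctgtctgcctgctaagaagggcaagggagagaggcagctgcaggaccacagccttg
Each held 1 match, the promoter of Pdc (phosducin, a rod gene) held 0, and 7.06% of all 32851 promoters in the table hold one. Crx itself averaged 108 CPM in the Pcdh9-Cre pool and 6.59 CPM in the ON up pool.

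The 12 genes named by size downward included genes of excitability and signalling. Scn2b, an auxiliary subunit of voltage-gated sodium channels, ran from 0 to 328 CPM in Pcdh9-Cre cells (median 80.99) and from 125 to 1499 CPM in ON up cells (median 373). The ranges overlapped, but the medians stood far apart. The pool means were 107 and 518 CPM, a difference of -2.22, which was -1.81 against second-run cells and -2.04 in the subset. Ramp1, a subunit of the CGRP receptor, averaged 28.04 against 161 CPM. Dusp3, a dual-specificity phosphatase, ran from 41.4 to 579 CPM against 326 to 2457 CPM. Hunk, a protein kinase, averaged 23.6 against 105 CPM. The other genes named by size were Fstl1, Lrrc8a, Shisa4, Ahnak2, Timmdc1, Prmt1 and Twf1, with differences from -1.97 to -1.79.

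The sodium and potassium channel lists had medians below that of all genes, beside 4.19% of all genes higher and 3.59% lower. Of 11 voltage-gated sodium channel genes compared, 2 were lower, Scn2b among them, and the list median was -0.57. Of 31 potassium channel genes, Kcnj3 (7.46 against 24.6 CPM) and Kcnc2 (70.3 against 156 CPM) were lower, none was higher and the median was -0.46. The 19 calcium channel genes had a median of -0.18, which was -0.02 against second-run cells and so above the median of all genes. Synaptic vesicle and release genes had a median of -0.40, with Syt4 and Vamp1 lower and Rims1 higher among 25. Rims1, a scaffold of the release site, averaged 250 against 78.3 CPM, but its medians were 75.5 and 64.3 CPM and 1 Pcdh9-Cre cell held 6960 CPM. The 8 acetylcholine receptor genes compared had none past 2-fold and a median of -0.24. General ganglion cell markers had a median of -0.44, with Pou4f1, a POU-domain factor, lower among 15 (43.98 against 124 CPM). In the subset of cells under 1600 CPM of other-type transcripts their median was -0.14, beside -0.19 over all genes there. The sodium and potassium channel medians in that subset were -0.47 and -0.40.

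**Figure D4:**
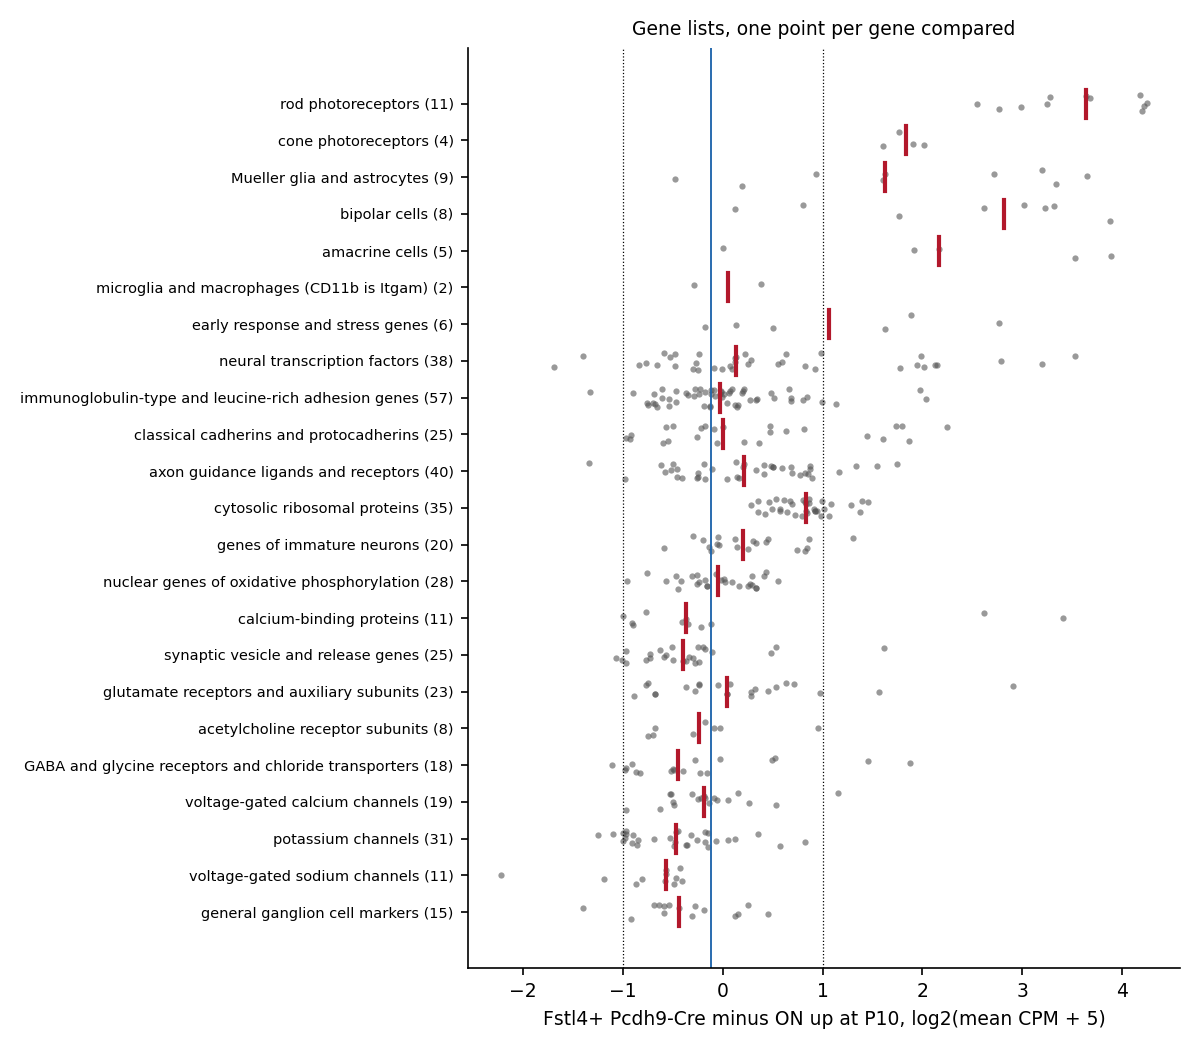
Difference between Fstl4-positive Pcdh9-Cre and ON up cells at P10 for each gene that passed the filter in 23 lists, in log2(mean CPM + 5), with the number of genes compared in brackets; red bars are list medians, dotted lines mark 2-fold and the blue line is the median of all genes, -0.12. The rod list has a median of 3.64 and sodium channels one of -0.57.

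Cytosolic ribosomal protein genes were shifted upward together. All 35 compared were above 0 and 7 were higher by 2-fold, beside 4.19% of all 11099 genes higher. The list median was 0.84, with 0.90 against second-run cells and 0.62 in the subset with few other transcripts. Rps27a, a ribosomal protein fused to ubiquitin, ran from 17.7 to 333 CPM (median 63.3) against 0 to 64.5 CPM (median 25.4). Near-identical pseudogene copies make the counting of this family uncertain. The early response genes Egr1 (80.3 against 7.51 CPM), Ier2 (28.1 against 3.94 CPM) and Fos (142 against 42.8 CPM) were the 3 higher of 6 compared. They stand beside the same 4.19% of all genes. The 6 had a median of 1.06, and all 11 genes of the list had one of 0.49. Ier2 passed the filter only through the Pcdh9-Cre pool. ON down cells at P10 averaged more: 104, 110 and 235 CPM in the same order. In the subset with few transcripts of other types the list median was -0.26.

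Surface and calcium-binding molecules differed gene by gene. Calb2 (calretinin), a calcium-binding protein, averaged 263 against 20.3 CPM, with a range of 0 to 2070 CPM (median 48.1) against 0 to 93.6 CPM (median 2.49). In the subset it averaged 328 CPM, and ON down cells at P10 averaged 736 CPM. Nrxn3, a presynaptic adhesion molecule, ran from 0 to 570 CPM (median 120) against 0 to 116 CPM (median 26.8). Its average in ON down cells at P10 was 140 CPM. Cadm1, an immunoglobulin-type adhesion molecule, was lower, at 274 against 693 CPM. Counts in the following lists stand beside 4.19% of all genes higher and 3.59% lower. The axon guidance list had 4 genes higher and 1 lower of 40, with the semaphorin Sema4a higher (23.7 against 4.84 CPM) and the ephrin Efna5 lower (57.6 against 153 CPM), and a median of 0.21. Cadherins and protocadherins had 6 higher and 0 lower of 25 and a median of 0.00, and immunoglobulin-type and leucine-rich adhesion genes 3 higher and 1 lower of 57. Among the higher genes of these 3 lists, Sema4a, Epha7, Robo3, Pcdh19, Cdh4, Slitrk2 and Nectin3 averaged under 5 CPM in ON up cells. They passed the filter only through the Pcdh9-Cre pool, so the counts of higher genes are not a fair excess over all genes. Of 38 transcription factors 9 were higher and 2 lower, and all 9 averaged under 5 CPM in ON up cells, so they passed the filter only through the Pcdh9-Cre pool. Among them were Meis2 and Sox6, found in 14 and 9 Pcdh9-Cre cells and in 0 of 45 ON up cells. ON down cells at P10 averaged 28.9 CPM of Meis2 and 44.5 CPM of Sox6.

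The place of the cells on the time course of the ON up pools was then described with genes chosen by their course in other pools. The genes also had to pass the filter of 5 CPM over the Pcdh9-Cre and ON up pools at P10. Genes at least 2-fold higher at P12 than at P4 in both the ON up and ON down pools, and detected in at least 90% of ON up cells at P12, numbered 148. These lists were made after values had been seen. In the Pcdh9-Cre pool 35 of the 148 were lower than in ON up at P10 and 1 was higher, beside 3.59% and 4.19% of all genes, and 134 of 148 were below 0. The median difference was -0.70, -0.71 against second-run cells and -0.68 in the subset. Set against the ON up pools of each age, the Pcdh9-Cre pool was at a median of 0.03 from P7, -0.20 from P8 and -0.96 from P12. The ON down pool at P10 was at -0.04 from ON up at P10, and the first-run and second-run ON up cells at -0.03 and 0.03. The runs are parts of that ON up pool, so they lie near it, and they differed from each other by a median of 0.07. ON up and ON down pools of P4 and P12 chose the genes, and the Pcdh9-Cre pool entered only through the filter, so these distances are not like for like. Scn2b gives an example: from the youngest age (P4) to the oldest (P12), the 6 ON up pools averaged 122, 172, 159, 266, 518 and 1027 CPM, and the Pcdh9-Cre pool at P10 averaged 107 CPM.

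Genes with the opposite course, at least 2-fold lower at P12 and detected in at least 90% of ON up cells at P4, numbered 104. Of these 16 were higher in the Pcdh9-Cre pool (15.4%) and 0 lower, beside 4.19% and 3.59% of all genes, and the median difference was 0.17, or 0.33 against second-run cells. Of the 16, 8 were ribosomal protein genes. Another of them, Gm8399, averaged 3.57 CPM in ON up cells at P10 and passed the filter only through the Pcdh9-Cre pool. Cd24a, a surface glycoprotein of immature neurons, averaged 77.8 CPM against 28.4 in ON up at P10, where ON up pools ran from 367 CPM at P4 to 7.08 CPM at P12. The ON up value at P10 differed between runs, with 49.4 CPM in first-run cells (difference 0.60, under 2-fold) and 6.48 CPM in second-run cells (difference 2.85). Cd24a is also in the down list, and ON down cells at P10 averaged 120 CPM. On this list the Pcdh9-Cre pool lay between the ON up pools of P8 (-0.24) and P10 (0.17). The first-run and second-run ON up cells were at 0.07 and -0.08 from the whole ON up pool of P10 on this list, of which they are parts. Second-run cells were at a median of -0.14 from first-run cells, so the Pcdh9-Cre pool stood less far apart here than on the 148 genes. Mouse line and cell group cannot be told apart here.

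**Figure D5:**
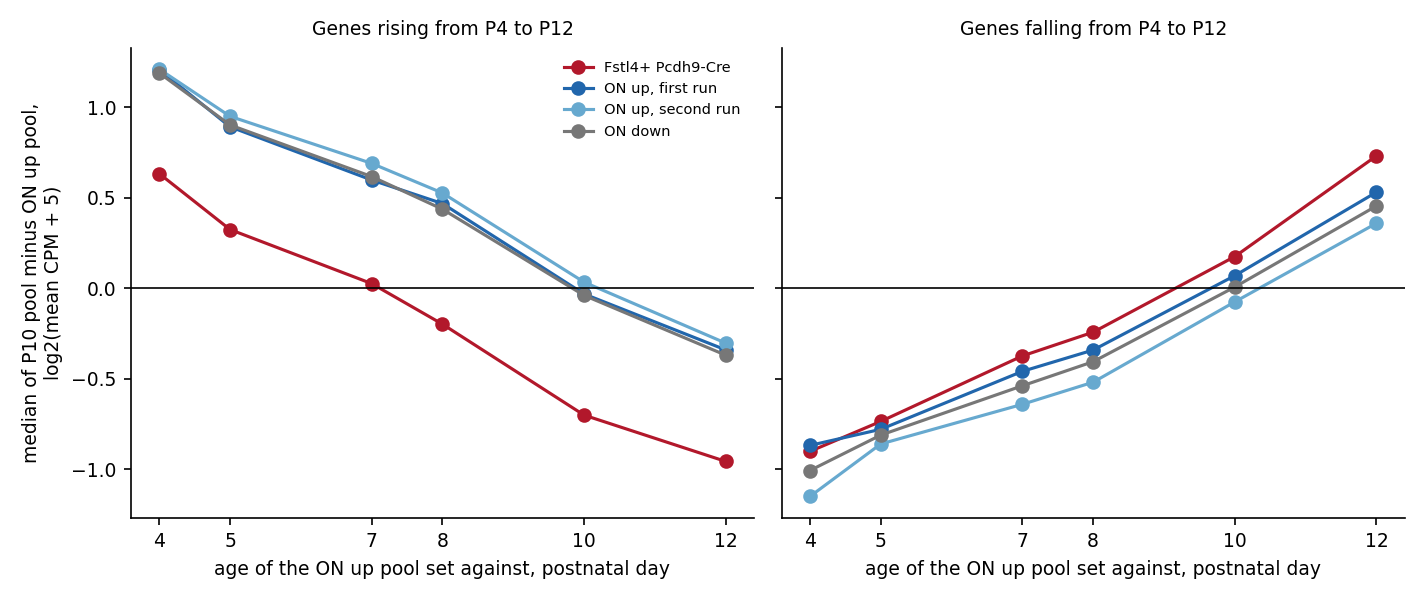
Median difference between each P10 pool and the ON up pool of the age on the horizontal axis (postnatal days), in log2(mean CPM + 5), over 148 genes higher (left) and 104 genes lower (right) at P12 than at P4. In the left panel the Pcdh9-Cre line crosses 0 near P7, at 0.03, while the ON down pool and both ON up runs cross it near P10; the ON up P10 pool holds the cells of both runs.

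Sex chromosome transcripts also differed. Xist, the RNA of the inactive X chromosome, was detected in 40 of 40 Pcdh9-Cre cells and 16 of 45 ON up cells. A fragment of Ddx3y, Eif2s3y, Kdm5d or Uty, genes of the Y chromosome, was found in 1 and 30 cells. Against only the 15 ON up cells with Xist and no Y-chromosome fragment, Scn2b differed by -2.50, the 148-gene median was -0.62 and the ribosomal median was 1.00. Of the up list, 4 genes were then higher and 4 lower. Calls over all genes were also more numerous than against all 45 ON up cells, so these counts alone do not show a departure from ON up. The counts over all genes are in the last section. Numbered gene models differed too: Gm26917 averaged 250 against 24.2 CPM and Gm10800 81.1 against 12.8 CPM.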

How the data were processed

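Single sorted cells were profiled with Smart-seq2 and 75 bp paired-end reads, per the labels' protocols. The submitters' processing notes name the aligner HISAT2 (2.1.0), Cufflinks (2.2.1) with its Cuffnorm step, SAMtools (1.3.1), R (3.5.1) and the builds GRCm38.p6 and mm10. In the main table the authors deposited a signal, the estimated fragments of a gene divided by the cell's size factor, a ratio that the authors deposited in the table of cells. Once multiplied back, 96.1% of the positive values were whole to within 0.05, and no count model was fitted. The authors' deposited FPKM table was an alternative. The number of columns without a sample was 0. Values were scaled to CPM per cell and averaged over cells. Genes with a mean of 5 CPM over both pools were compared with a pseudocount of 5 CPM. The up and down lists came from limma 3.58.1 (trend, robust, age as block, 4 residual degrees of freedom), tested on simulated data; their p-values rest on the spread over ages, part of which may be technical. The members and the 32 gene lists were chosen with earlier results of these data known. Named genes had no number-coded symbol, were not ribosomal, mitochondrial, histone or sex-chromosomal, averaged 20 CPM, kept sign and 2-fold size against both runs and were detected in 25% of cells of the higher pool; the 12 largest each way were taken, with the 10 leading genes of each direction list and, per fixed list, up to 4 past 2-fold. Other genes named (among them Tac1, Rbpms, Slc17a6, Crx, AW551984, Zfhx4 and Cd24a) were chosen after their values were seen. Coordinates are GENCODE M21. Cells of 1 sorted pool were not filtered and no doublet caller was run. Intervals are exact binomial at 95% and upper limits 3 counts of the total; both cover counting error only. Some genes that the naming rule picked are not reported here.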

Additional observations from a re-analysis of the deposited data

How the results depend on the processing

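No paired analysis was possible because replicate numbers only name cells. With all cells, 465 genes were higher and 398 lower. First-run ON up cells alone gave 717 and 694, a pseudocount of 1 CPM 732 and 720, and one of 20 CPM 154 and 122. ON up cells with Xist and no Y-chromosome fragment gave 967 and 881 of 11006 genes. A filter of 20 CPM gave 172 higher, the mean of log2 values over cells 260 lower, leaving out cells with any of 6 microglial genes 598 lower, and cells under 1600 CPM of other-type transcripts 234 higher. In the up list, 4 genes were lower; second-run cells gave 1, the mean of log2 values 9 and cells under 1600 CPM 2. In the down list, 5 were higher and 2 lower; second-run cells gave 8 and 4, a pseudocount of 1 CPM 10 and 4, and the mean of log2 values 2 and 4. Over genes that passed the filter, the main medians were 3.64 (rod), 1.83 (cone), 1.63 (glial), 2.82 (bipolar) and 2.17 (amacrine). With the mean of log2 values these medians were 2.90 for rod, 0.67 for cone, 0.74 for glial, 1.11 for bipolar and 0.47 for amacrine genes. Under 1600 CPM they were 1.65 for rod, 0.26 for glial, -0.26 for bipolar, 0.040 for amacrine and -0.26 for early response genes. The rod, glial, bipolar and amacrine lists set that limit, so lower medians there follow from the choice of cells. The glial, bipolar and amacrine medians rested on 5, 2 and 2 genes. Leaving out 1 age (leave-one-out) gave 32 to 37 up-list and 24 to 31 down-list genes, and a filter of 1 CPM 28 down-list genes. The cause of these shifts was not tested. Under 1600 CPM the sign turned for Rlbp1 (-0.11), Col25a1 (-0.62), Gnat2 (-0.080), Slc1a3 (-0.49), Fos (-0.36), Slitrk2 (-0.30) and Gabrd (-0.0082), and for Ddx3y (0.012) against ON up cells with Xist. Rlbp1, Gnat2 and Slc1a3 belong to the lists that set the limit. A further 176 summary values under the alternatives moved by no more than 1.5 times, or, for medians, by no more than 0.58, the SD over genes between the 2 ON up runs. The cells under 1600 CPM and the Xist comparison were chosen after seeing the data. Depth limits statements on genes of few fragments such as Tbx5.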
